A study of Mus musculus with 2 samples.

Results

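Inguinal nodes draining a tumour were taken from mice labelled ATG5LEC-KO and from wild-type (WT) mice, and their regulatory T cells are described here, with 1 single-cell RNA library per genotype. A cell was taken as a regulatory T cell if it had at least 1 UMI (a counted RNA molecule) of the T cell receptor subunit genes Cd3e, Cd3d and Cd3g, at most 1 of the B cell gene Cd79a, none of Cd8a, Cd8b1, Prox1 or Egfl7, and either a Foxp3 UMI or at least 2 UMIs of Ikzf2 and Il2ra together. By this rule 299 of 8091 cells were regulatory T cells, 181 of 4198 in the Atg5 LEC-KO library and 118 of 3893 in the WT library. Only cells with at least 1200 UMIs, at least 200 genes and at most 25% of UMIs from mitochondrial genes were considered.

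The Atg5 LEC-KO library pooled cells of 9 nodes and the WT library cells of 13 nodes, both sorted by flow cytometry as viable CD45+ CD31- Ter119- immune cells and viable CD31+ CD45- Ter119- endothelial cells and then mixed. The genotype label of the first library is ATG5 KO, and the series text adds LEC, the usual short form for lymphatic endothelial cells. Atg5 encodes a protein of the conjugation system that builds autophagosomes. The Cre driver, the deleted exon, the tumour, the age and the number of mice are not given in the sources used here. Both libraries carried cells of male and female animals, read from Xist and Y-linked transcripts. Because the nodes of a genotype were pooled, each genotype is 1 sample: no test between genotypes was possible, and every interval given here is a 95% interval for counting error only, which includes neither the spread between animals nor the bursts of UMIs from single cells.

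Regulatory T cells restrain other lymphocytes. Foxp3 is the transcription factor that defines the lineage, Ikzf2 encodes Helios, a transcription factor of most thymus-derived regulatory T cells, Il2ra encodes CD25, the high-affinity subunit of the IL-2 receptor, and Ctla4 encodes a receptor that removes the costimulatory ligands CD80 and CD86 from antigen-presenting cells. In lymph nodes, resting (central) regulatory T cells keep the homing receptor CCR7 and live on IL-2, while effector regulatory T cells carry ICOS, CD44 and integrins and can leave for inflamed tissue. Foxp3 lies on chrX:7573644-7595245, Ikzf2 on chr1:69531214-69687245, Il2ra on chr2:11642807-11693193 and Ctla4 on chr1:60887000-60915832 of GRCm38, all as protein-coding genes.

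The Atg5 LEC-KO library held 23089918 UMIs and the WT library 23649554. The 181 Atg5 LEC-KO regulatory T cells had a median of 3795 UMIs and 1635 genes, and the 118 WT cells a median of 3716.5 UMIs and 1651.5 genes. Outside mitochondrial genes, the summed UMIs were 765170 in Atg5 LEC-KO and 565228 in WT regulatory T cells, and levels below are UMIs as a share of these sums, in the usual unit CPM. The libraries shared 14 barcodes, of which 1 was a WT regulatory T cell and none an Atg5 LEC-KO regulatory T cell. Among regulatory T cells of known sex, 60.2% (51.1 to 68.7%) were male in the Atg5 LEC-KO library and 77.9% (67.0 to 86.6%) in the WT library, so genotype and sex were not balanced, and the main values are also given within each sex. The rule required Prox1 at 0; of the other 5 lymphatic endothelial markers searched, 4 were at 0 in the regulatory T cells of each library. Of 10 B cell markers 2 were at 0 in each library, and the list summed to 423 CPM in Atg5 LEC-KO and 429.9 CPM in WT regulatory T cells.

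The deleted gene was counted in the regulatory T cells of both libraries. Atg5 had 40 UMIs in 27 Atg5 LEC-KO cells (52.3 CPM) and 25 UMIs in 21 WT cells (44.2 CPM), a ratio of 1.18 (0.70 to 2.03). Atg5 lies on chr10:44268358-44364291 of GRCm38. The series text places its deletion in LEC and not in T cells, the deleted exon is not given, and a 3' tag need not touch the deleted part, so these UMIs do not check the genotype.

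The genes that chose the cells are given as a description. Foxp3 stood at 525 CPM (475 to 579) in Atg5 LEC-KO and 548 CPM (489 to 613) in WT regulatory T cells. Ikzf2 stood at 1304 CPM in Atg5 LEC-KO cells and 1456 CPM in WT cells, and Il2ra at 704 CPM in Atg5 LEC-KO cells and 659.9 CPM in WT cells. Ctla4, a marker that the rule did not use, was at 1035 CPM in Atg5 LEC-KO cells and 961 CPM in WT cells, a ratio of 1.08 (0.965 to 1.2). A Ctla4 UMI was found in 86.7% of Atg5 LEC-KO and 88.3% of WT regulatory T cells with a Foxp3 UMI, against 21.6% and 21.4% of conventional CD4 T cells, which met the rule's other steps and had a Cd4 UMI but none of Foxp3, Ikzf2 or Il2ra. For comparison, 4.01% of 1520 Atg5 LEC-KO and 4.48% of 1296 WT B cells had a Ctla4 UMI, at a median of 2754.5 and 2745.5 UMIs a cell. The part of free RNA in these shares was not tested. A Foxp3 UMI was found in 0 of 1520 Atg5 LEC-KO B cells, which by the rule of 3 counts of the total, used for every share of 0 here, allows a share of up to 0.197%, and in 1 of 1296 WT B cells (0.0772%).

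The 98 Atg5 LEC-KO and 60 WT cells with a Foxp3 UMI carried the wider regulatory programme. Of 24 regulatory T cell core genes outside the rule, 21 had at least 30 UMIs, all 21 were higher than in conventional CD4 T cells in both libraries, and 20 were at least 2-fold higher in both; the cells were chosen on Foxp3, so this describes them and tests nothing. Over all 8078 genes measured in that comparison, 5.48% were at least 2-fold higher and 2.6% at least 2-fold lower in both libraries. The median log2 ratio of the core genes was 3.11 in the Atg5 LEC-KO and 2.79 in the WT library, beside 0.0020 and 0.048 over all genes. Lrrc32, which encodes GARP, the surface anchor of latent TGF-beta, stood at 218 CPM in cells with a Foxp3 UMI against 1.43 CPM in conventional cells of the Atg5 LEC-KO library, and 223 against 2.9 CPM in WT. Itgae, the integrin chain CD103 that binds epithelial cadherin, was at 211 CPM in cells with a Foxp3 UMI against 1.43 CPM in conventional cells of the Atg5 LEC-KO library, and 207 against 4.35 CPM in WT. Tnfrsf4, the costimulatory receptor OX40, was at 355 CPM in cells with a Foxp3 UMI against 28.5 CPM in conventional cells of the Atg5 LEC-KO library, and 363 against 26.1 CPM in WT. In each library all 3 were far above conventional cells. Over all 299 cells, 23 of 23 core genes measured were at least 2-fold higher than in conventional CD4 T cells in both libraries; 6.12% of all genes were, and 1.44% were at least 2-fold lower.

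Further core genes followed. Ikzf4 (Eos), a partner of Foxp3 in gene silencing, was at 194 CPM in cells with a Foxp3 UMI against 24.2 CPM in conventional cells of the Atg5 LEC-KO library, and 230.1 against 10.1 CPM in WT. Nrp1 (neuropilin-1), a surface receptor of thymus-derived regulatory T cells, was at 204 CPM in cells with a Foxp3 UMI against 27.1 CPM in conventional cells of the Atg5 LEC-KO library, and 230.1 against 18.8 CPM in WT. Izumo1r, the folate receptor 4 of regulatory and anergic T cells, was found in 75.5% of Atg5 LEC-KO and 65% of WT cells with a Foxp3 UMI, against 21.6% and 24.9% of conventional CD4 T cells. Genes with the largest ratios outside the core list, picked after their values were seen, included Itgb8, the integrin chain that releases active TGF-beta, at 149 CPM in cells with a Foxp3 UMI against 10.7 CPM in conventional cells of the Atg5 LEC-KO library, and 107 against 0 CPM in WT, and Tnfrsf9 (4-1BB), an activation-induced receptor, at 223 CPM in cells with a Foxp3 UMI against 12.8 CPM in conventional cells of the Atg5 LEC-KO library, and 297 against 4.35 CPM in WT. Genes of naive T cells stood lower: Igfbp4 was at 73.4 CPM in cells with a Foxp3 UMI against 799 CPM in conventional cells of the Atg5 LEC-KO library, and 120.1 against 813 CPM in WT. Tcf7, the transcription factor TCF-1 of naive and memory T cells, and Il7r, the IL-7 receptor chain that regulatory T cells keep low, were also at least 2-fold lower in both libraries. Of 28 cell cycle genes measured, 24 were at least 2-fold higher in both. 19.4% of Atg5 LEC-KO and 16.7% of WT cells with a Foxp3 UMI had at least 2 UMIs over Mki67, Top2a, Cenpf and Cdk1, against 3.02% and 2.62% of conventional CD4 T cells. The summed level of 10 B cell markers was 573 CPM in Atg5 LEC-KO and 600.3 CPM in WT cells with a Foxp3 UMI, against 244 and 169.6 CPM in conventional CD4 T cells, and its part in these ratios was not tested.

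The 83 Atg5 LEC-KO and 58 WT cells that entered through Ikzf2 and Il2ra alone were mixed, and here the data went against the label in part. 38.6% (32 of 83, 28.1 to 49.9%) of them in the Atg5 LEC-KO library and 46.6% (27 of 58, 33.3 to 60.1%) in the WT library had at least 2 UMIs of gamma-delta T cell receptor constant genes (Trdc, Tcrg-C1, Tcrg-C2, Tcrg-C4) or a UMI of a killer lectin receptor (Klrd1, Klre1, Klrb1c, Klrk1). Among cells with a Foxp3 UMI, 2 of 98 (2.04%) did so in the Atg5 LEC-KO library and 0 of 60 in the WT library, which allows a share of up to 5.0%. This division was chosen after the values had been seen. The 32 Atg5 LEC-KO and 27 WT cells with such UMIs had Trdc at 875 CPM in Atg5 LEC-KO and 954 CPM in WT, the T cell chemokine Ccl5 at 2286 CPM in Atg5 LEC-KO and 1192 CPM in WT, and the chemokine receptor Cxcr6 at 672 CPM in Atg5 LEC-KO and 769 CPM in WT. A Ctla4 UMI was present in 12.5% of them in Atg5 LEC-KO and 18.5% in WT, and a Cd4 UMI in 6.25% and 11.1%. Lrrc32 had no UMI in them in either library.

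Of 15 core genes measured in these gamma-delta or killer lectin cells, 8 were higher than in conventional CD4 T cells in both libraries, and 5 were at least 2-fold higher in both (Capg, Dusp4, Il2rb, Itgae and Rgs1), beside 4.99% of 7654 genes, and none of the core genes was at least 2-fold lower in both, beside 2% of genes. Here the data do not bear out the label of regulatory T cells. The other 51 Atg5 LEC-KO and 31 WT cells without a Foxp3 UMI kept most of the regulatory programme. Ctla4 was found in 70.6% and 90.3% of them, Cd4 in 64.7% and 64.5%, Lrrc32 stood at 122 CPM in Atg5 LEC-KO and 140.4 CPM in WT, and Ikzf4 at 122 CPM in Atg5 LEC-KO and 177 CPM in WT. Of 17 core genes measured, all 17 were higher than in conventional CD4 T cells in both libraries and 14 at least 2-fold higher in both, beside 3.45% of 7658 genes, and none was lower in both, where 0.744% of genes were at least 2-fold lower. Their medians of 2.33 in Atg5 LEC-KO and 2.6 in WT on the log2 scale stood beside 0.085 and 0.14 over all genes.

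**Figure D1:**
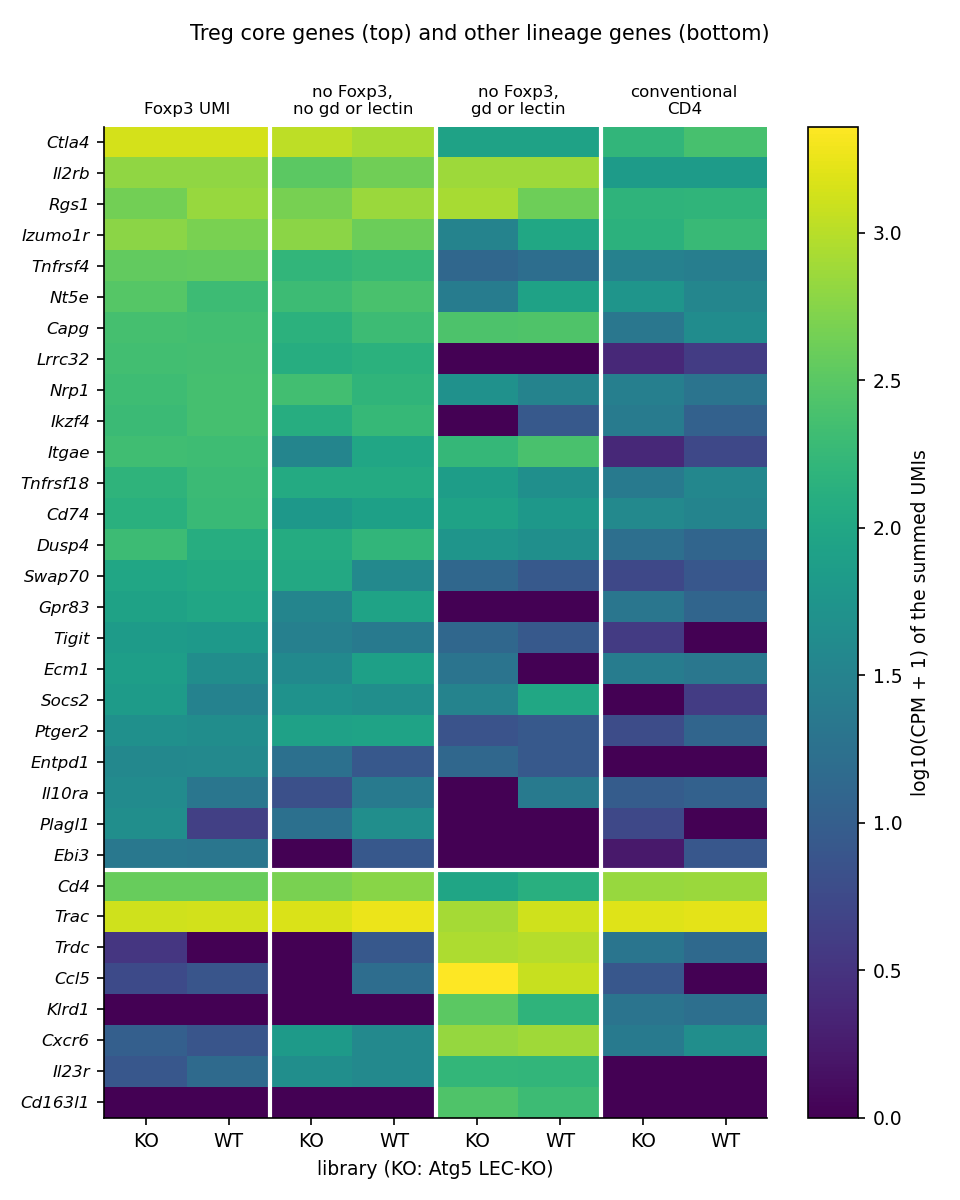
Levels of 24 regulatory T cell core genes (top) and 8 lineage genes (bottom) as log10(CPM + 1) of the summed UMIs, with Atg5 LEC-KO (KO) left of WT in each of 4 sets of cells. Among cells without a Foxp3 UMI, the sums over 51 Atg5 LEC-KO and 31 WT cells hold Ctla4, Lrrc32, Ikzf4 and Cd4. The sums over the other 32 Atg5 LEC-KO and 27 WT cells hold Trdc, Ccl5 and Cxcr6, and no UMI of Lrrc32. Single cells need not carry each gene: Ccl5 and Cxcr6 met in 3 cells without a Foxp3 UMI in each library.

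The gamma-delta and killer lectin criteria overlapped: of 20 Atg5 LEC-KO and 18 WT cells with gamma-delta UMIs but no Foxp3 UMI, 16 and 10 also had a killer lectin UMI. In the Atg5 LEC-KO library, 16 cells without a Foxp3 UMI carried Ccl5, and 15 of these had a killer lectin UMI; 23 carried Cxcr6, and 17 of these had gamma-delta UMIs. In the WT library 11 carried Ccl5, 9 of them with a killer lectin UMI, and 20 carried Cxcr6, 14 of them with gamma-delta UMIs. Ccl5 and Cxcr6 met in 3 cells of each library. Il23r, the receptor chain for IL-23, or Cd163l1 (SCART1), a receptor of IL-17-producing gamma-delta T cells, was found in 12 Atg5 LEC-KO and 15 WT cells without a Foxp3 UMI, and 0 and 1 of these had Ccl5. Across all cells without a Foxp3 UMI, Ccl5 was at 1083 CPM in cells without a Foxp3 UMI against 4.73 CPM in cells with one of the Atg5 LEC-KO library, and 592 against 6.67 CPM in WT, and Klrk1 (NKG2D) at 204 CPM in cells without a Foxp3 UMI against 0 CPM in cells with one of the Atg5 LEC-KO library, and 102 against 0 CPM in WT; of 6471 genes, 2.35% were at least 2-fold higher and 1.59% at least 2-fold lower in both libraries. On the other side, Il1rl1, the IL-33 receptor chain ST2, and Penk, which encodes proenkephalin, had no UMI in any cell without a Foxp3 UMI, which for Il1rl1 allows, at 3 counts of the total, a share of cells with a UMI of up to 3.61% in Atg5 LEC-KO and 5.17% in WT. This sets no limit on cells that express it. The genes of these sentences were picked after their values had been seen.

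Cells at the edge of the rule were compared as a description. Among cells with no Foxp3 UMI, Ctla4 stood at 671 CPM in Atg5 LEC-KO and 464 CPM in WT where Ikzf2 and Il2ra summed to at least 3, at 269 and 535 CPM where they summed to 2, the last value inside the rule, and at 298 and 611 CPM where they summed to 1, the first value outside it. Where both were absent, Ctla4 was at 155 CPM in Atg5 LEC-KO and 205 CPM in WT. Cells just outside the rule thus carried no less Ctla4 than cells just inside it. Trdc was at 582 CPM in Atg5 LEC-KO and 360.2 CPM in WT where the sum was 1, and at 269 and 649.5 CPM where it was 2. A single Foxp3 UMI went with 982 CPM of Ctla4 in Atg5 LEC-KO and 1835 CPM in WT, and at least 2 Foxp3 UMIs with 1541 and 1351 CPM.

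The share of regulatory T cells among CD3-positive CD8-negative T cells was 20.9% (181 of 864, 18.3 to 23.8%) in the Atg5 LEC-KO library and 24.2% (118 of 488, 20.4 to 28.2%) in the WT library. The intervals overlapped. With a Foxp3 UMI required, the shares were 11.3% (98 of 864, 9.3 to 13.6%) and 12.3% (60 of 488, 9.52 to 15.5%). Without the gamma-delta or killer lectin cells, they were 17% (147 of 864, 14.6 to 19.7%) and 18.6% (91 of 488, 15.3 to 22.4%). In male cells the shares were 26.5% (77 of 291) in Atg5 LEC-KO and 26.1% (60 of 230) in WT. In female cells they were 26.3% (51 of 194) and 27.4% (17 of 62). Cells of unknown sex, among them 53 Atg5 LEC-KO and 41 WT regulatory T cells, enter neither. The shares by sex thus cover only part of the cells behind the shares over all cells. A difference in the abundance of regulatory T cells was not detectable at these cell numbers, and the cell sort and the pooling of nodes also bear on such a share.

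Each regulatory T cell was then placed between a resting and an effector state. Its effector fraction was the UMIs of Icos, Cd44, Itgb1, Maf and Tnfrsf9 over the UMIs of these genes and of 5 resting genes, of which Ccr7, Lef1, Satb1 and Dapl1 are named here, in cells with at least 3 such UMIs. Cells at or below 0.25 were called resting range and cells at or above 0.75 effector range; these are ranges of a score and not cell types. Resting range cells made up 34.4% (62 of 180, 27.5 to 41.9%) of Atg5 LEC-KO and 20.7% (24 of 116, 13.7 to 29.2%) of WT regulatory T cells. Effector range cells made up 32.8% (59 of 180, 26 to 40.2%) of Atg5 LEC-KO and 47.4% (55 of 116, 38.1 to 56.9%) of WT cells. The median effector fraction was 0.433 (quartiles 0.153 and 0.902) in Atg5 LEC-KO and 0.695 (quartiles 0.348 and 0.946) in WT cells. The resting share was thus 13.8 percentage points higher in Atg5 LEC-KO (interval 3.2 to 23.4) and the effector share 14.6 points lower (interval -25.7 to -3.2). With cells of at most 10% mitochondrial UMIs the resting difference was 6.35 points, and in female cells 6.47 points. The intervals over all cells exclude 0 for counting error, and whether the shift exceeds the spread between animals cannot be told from 1 pooled library a genotype.

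The shift ran the same way in each division of the cells that was made. Among cells with a Foxp3 UMI, 37.1% in Atg5 LEC-KO and 20.3% in WT were resting range, and 26.8% and 42.4% effector range. Among cells without a Foxp3 UMI, 31.3% in Atg5 LEC-KO and 21.1% in WT were resting range, and 39.8% and 52.6% effector range. In male cells the resting shares were 27.3% in Atg5 LEC-KO and 15% in WT, and the effector shares 33.8% and 48.3%. In female cells the resting shares were 30% of 50 Atg5 LEC-KO and 23.5% of 17 WT cells, and the effector shares 40% and 64.7%. Within 0.05 of the lower limit lay 20 Atg5 LEC-KO and 5 WT cells, and within 0.05 of the upper limit 7 and 6. Conventional CD4 T cells were mostly resting in both libraries, 84.9% in Atg5 LEC-KO and 79.0% in WT, with 6.37% and 8.04% in the effector range.

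**Figure D2:**
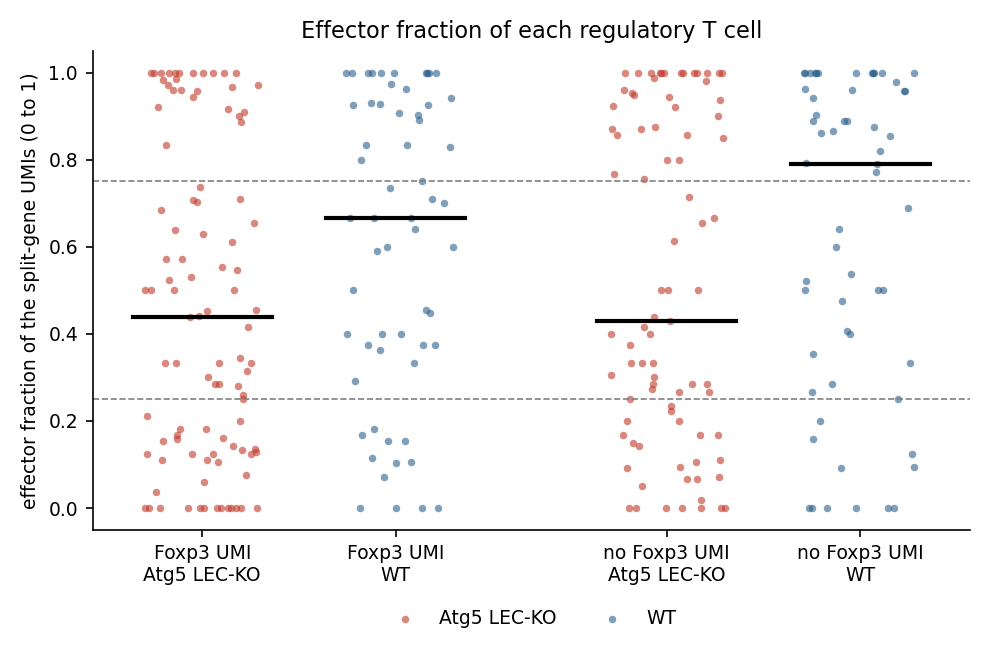
Effector fraction of each scored regulatory T cell (0 to 1), for cells with and without a Foxp3 UMI, with Atg5 LEC-KO left of WT in each pair; horizontal bars are medians and dashed lines the limits at 0.25 and 0.75. Cells spread over the whole range in both libraries, and the medians are lower in Atg5 LEC-KO, at 0.438 and 0.429, than in WT, at 0.667 and 0.791.

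The shares above are made of the 10 score genes, whose levels are therefore a description of the same shift. Ccr7, which guides lymphocytes towards CCL21 and CCL19 in the node, was at 495 CPM in Atg5 LEC-KO cells and 297 CPM in WT cells. Lef1, a transcription factor of naive T cells, was at 344 CPM in Atg5 LEC-KO cells and 260.1 CPM in WT cells, and Satb1, a chromatin organiser of early T cells, at 439 CPM in Atg5 LEC-KO cells and 309.6 CPM in WT cells. On the effector side, Icos, the inducible costimulator, was at 1026 CPM in Atg5 LEC-KO cells and 1493 CPM in WT cells, and Cd44, the hyaluronan receptor of activated T cells, at 299 CPM in Atg5 LEC-KO cells and 380.4 CPM in WT cells. Itgb1 was at 580.3 CPM in Atg5 LEC-KO cells and 692 CPM in WT cells, Maf at 829.9 CPM in Atg5 LEC-KO cells and 947 CPM in WT cells and Tnfrsf9 at 173 CPM in Atg5 LEC-KO cells and 223 CPM in WT cells. Dapl1 was at 32.7 CPM in Atg5 LEC-KO cells and 24.8 CPM in WT cells. The resting genes named were all higher and the 5 effector genes all lower in Atg5 LEC-KO.

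Genes held out of the score were compared between the ranges in all regulatory T cells of the rule. These included gamma-delta or killer lectin cells without a Foxp3 UMI, which were 16 of 59 Atg5 LEC-KO and 14 of 55 WT effector range cells and 9 of 62 and 5 of 24 resting range cells. Their part in the values that follow was not tested. All 12 Atg5 LEC-KO and 14 of 15 WT cells with Il23r or Cd163l1 UMIs described above lay in the effector range. Of 34 held-out effector genes measured, 32 were higher in effector than in resting range cells in both libraries and 21 at least 2-fold higher in both, while 4.57% of all 5057 genes were. S100a4, a calcium-binding protein of motile cells, stood at 957 CPM in the effector range against 0 CPM in the resting range of the Atg5 LEC-KO library, and 706 against 0 CPM in WT. Ccr2, the receptor for the inflammatory chemokine CCL2, was at 698 CPM in the effector range against 4.67 CPM in the resting range of the Atg5 LEC-KO library, and 436 against 0 CPM in WT. Rora, a nuclear receptor of tissue regulatory T cells and innate lymphoid cells, was at 537 CPM in the effector range against 74.8 CPM in the resting range of the Atg5 LEC-KO library, and 823 against 117 CPM in WT. Each of these was low in resting range cells of both genotypes. Prdm1 (Blimp-1), a transcription factor of effector regulatory T cells, had 37 UMIs in the effector and 0 in the resting range of Atg5 LEC-KO cells, and 20 and 0 in WT cells. Among genes named by their ratio, the cycling marker Mki67 was at 365 CPM in the effector range against 18.7 CPM in the resting range of the Atg5 LEC-KO library, and 514 against 23.3 CPM in WT, and Nrn1, a neuritin of anergic and regulatory T cells, at 98 CPM in the effector range against 9.35 CPM in the resting range of the Atg5 LEC-KO library, and 231 against 11.7 CPM in WT.

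Of 15 held-out resting genes, 12 were lower in effector than in resting range cells in both libraries and 8 at least 2-fold lower in both, while 2.43% of all genes were. Bach2, a repressor that holds T cells in a resting state, was at 43.1 CPM in the effector range against 458 CPM in the resting range of the Atg5 LEC-KO library, and 49.6 against 408 CPM in WT. Bcl2, the survival factor, was at 47.1 CPM in the effector range against 379 CPM in the resting range of the Atg5 LEC-KO library, and 81.6 against 373 CPM in WT, and Klf2, the factor that keeps S1pr1 on, at 549 CPM in the effector range against 1393 CPM in the resting range of the Atg5 LEC-KO library, and 408 against 2451 CPM in WT. Igfbp4 was at 7.84 CPM in the effector range against 210.4 CPM in the resting range of the Atg5 LEC-KO library, and 0 against 525 CPM in WT. Il7r and Ly6a went the other way and were higher in the effector range of both libraries, Il7r at 1741 CPM in the effector range against 1169 CPM in the resting range of the Atg5 LEC-KO library, and 1294 against 525 CPM in WT. Ly6c2, Klrd1 and Ccl5 were also lower in the effector range: Ccl5 was at 149 CPM in the effector range against 977 CPM in the resting range of the Atg5 LEC-KO library, and 7.09 against 525 CPM in WT, and the Ccl5 cells described above lay in the resting range in 8 Atg5 LEC-KO and 4 WT cells and in the effector range in 2 and 2. Cxcr6 cells without a Foxp3 UMI were on the other side, with 18 Atg5 LEC-KO and 17 WT cells in the effector range and 1 and 1 in the resting range. The score thus spread the gamma-delta or killer lectin cells over both ranges too, and without them the genotype differences were 14.95 points for the resting and -16.6 points for the effector share, a set added after the values had been seen.

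**Figure D3:**
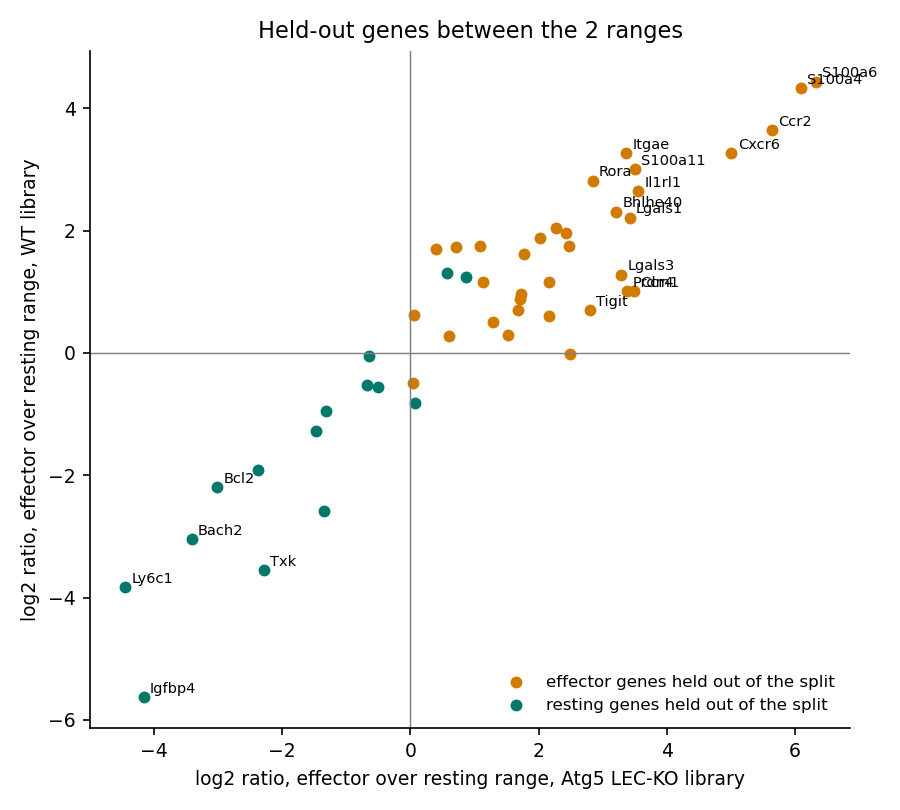
Log2 ratio of each held-out gene between effector and resting range regulatory T cells, in the Atg5 LEC-KO library (horizontal) and the WT library (vertical), for 34 effector genes (orange) and 15 resting genes (green); labelled genes have the largest ratios. A count of 0 was set to 3, and 32 of the 34 effector genes lie above 0 on both axes.

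Within cells with a Foxp3 UMI, the levels of the rule's own genes and of Ctla4 are given by range, in order from resting to effector with Atg5 LEC-KO before WT. Foxp3 stood at 951 and 994 CPM in the resting range, 727 and 855 CPM in the range between, 1418 and 1200.2 CPM in the effector range. Ikzf2 stood at 968 and 1037 CPM in the resting range, 1438 and 1807 CPM in the range between, 2623 and 2233 CPM in the effector range, highest at the effector end in both libraries. In WT the Ikzf2 intervals of the effector range and the range between overlapped. Il2ra stood at 875 and 951 CPM in the resting range, 908 and 925 CPM in the range between, 769.7 and 662 CPM in the effector range. These values were lowest at the effector end in both, but the Il2ra intervals of the ranges overlapped in each library. Ctla4 stood at 935 and 1059 CPM in the resting range, 1016 and 1423 CPM in the range between, 2734 and 1455 CPM in the effector range. In the effector range Ctla4 was thus higher in Atg5 LEC-KO (2418 to 3081 CPM) than in WT (1260 to 1671 CPM). In the range between it was lower in Atg5 LEC-KO (883 to 1165 CPM) than in WT (1213 to 1659 CPM). The Ctla4 intervals of the resting range overlapped.

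In all regulatory T cells of the rule, with or without a Foxp3 UMI, 20 core genes were measured between the ranges, of which 10 were higher and 6 lower in the effector range of both libraries. Capg, Cd74, Itgae and Nt5e were at least 2-fold higher in both, as were 4.57% of all 5057 genes. Itgae was at 337 CPM in the effector range against 32.7 CPM in the resting range of the Atg5 LEC-KO library, and 337 against 0 CPM in WT. Ecm1 and Gpr83, a G-protein-coupled receptor of regulatory T cells, were at least 2-fold lower in both, as were 2.43% of all genes. Gpr83 was at 19.6 CPM in the effector range against 98.2 CPM in the resting range of the Atg5 LEC-KO library, and 35.5 against 187 CPM in WT.

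A small set of cells with a Foxp3 UMI carried Il1rl1, the mark of tissue-type regulatory T cells that respond to IL-33. It numbered 11 of 98 in the Atg5 LEC-KO library (11.2%, 5.74 to 19.2%) and 11 of 60 in the WT library (18.3%, 9.52 to 30.4%). None of these cells lay in the resting range in either library; 6 Atg5 LEC-KO and 8 WT cells lay in the effector range. Areg, which encodes the repair factor amphiregulin, was found in 5 of the Atg5 LEC-KO and 7 of the WT cells, Klrg1, a lectin receptor of terminal effector cells, in 4 and 5, Itgae in 9 and 8, and at least 2 cell cycle UMIs in 6 and 6. The UMIs themselves were concentrated: of 67 Il1rl1 UMIs in Atg5 LEC-KO the highest cell held 17, and of 73 in WT the highest cell held 40. Conventional CD4 T cells had Il1rl1 in 0.698% of Atg5 LEC-KO and 0.437% of WT cells.

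Across the genotypes, 6471 genes had at least 30 UMIs in the regulatory T cells of the libraries together. Of these, 146 (2.26%) were at least 2-fold higher and 166 (2.57%) at least 2-fold lower in Atg5 LEC-KO, and the median log2 ratio was -0.004. Of 22 core genes measured, 12 were higher and 10 lower, none by 2-fold, and the median log2 ratio over the list was 0.048. Lrrc32 was at 149 CPM in Atg5 LEC-KO cells and 152 CPM in WT cells, Il2rb, the IL-2 receptor beta chain, at 578 CPM in Atg5 LEC-KO cells and 609 CPM in WT cells, and Tnfrsf18 (GITR) at 127 CPM in Atg5 LEC-KO cells and 139.8 CPM in WT cells. Izumo1r was at 474 CPM in Atg5 LEC-KO cells and 377 CPM in WT cells, a ratio of 1.26 (1.06 to 1.5), and Rgs1, a brake on chemokine receptor signalling, at 525 CPM in Atg5 LEC-KO cells and 632 CPM in WT cells, a ratio of 0.832 (0.72 to 0.962). CD8 T cell markers summed to 588 CPM in Atg5 LEC-KO and 361 CPM in WT regulatory T cells (Cd8a and Cd8b1 were at 0 by the rule), and gamma-delta markers to 595 and 524 CPM. Ratios between genotypes without the gamma-delta or killer lectin cells were computed and are counted among the alternative values of the closing section. No test of the part of such cells was run. The core median was 0.28 within male and 0.33 within female cells, and -0.091 without cells above 3 times the median UMIs.

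As lists over all regulatory T cells, receptors and mediators through which these cells act were close to even between the libraries. Within ranges of cells with a Foxp3 UMI, Ctla4 went both ways, as given above. Of 12 checkpoint and costimulatory receptors measured, 7 were higher and 5 lower in Atg5 LEC-KO, none by 2-fold, and the median log2 ratio over the list was 0.09. Cd27, a costimulatory receptor of less differentiated T cells, was at 213 CPM in Atg5 LEC-KO cells and 138 CPM in WT cells, a ratio of 1.54 (1.17 to 2.05). Btla, an inhibitory receptor, was at 297 CPM in Atg5 LEC-KO cells and 226 CPM in WT cells, a ratio of 1.31 (1.05 to 1.64). The inhibitory receptor gene Pdcd1 (PD-1) had 35 UMIs in Atg5 LEC-KO and 21 in WT cells, and Lag3 had 5 and 4, below the limit for a ratio. Of 11 suppressive mediators measured, 7 were higher and 4 lower, and the median log2 ratio over the list was 0.15 and none 2-fold apart. Tgfb1, the suppressive cytokine TGF-beta 1, was at 58.8 CPM in Atg5 LEC-KO cells and 31.8 CPM in WT cells, a ratio of 1.85 (1.05 to 3.39). Nt5e (CD73), which makes adenosine, was at 214 CPM in Atg5 LEC-KO cells and 184 CPM in WT cells, a ratio of 1.16 (0.906 to 1.5). Il10 had 16 UMIs in Atg5 LEC-KO and 3 in WT cells, too few to enter the counts. Of 12 TGF-beta pathway genes, 7 were higher and 5 lower, and the median log2 ratio over the list was 0.068.

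Receptors for homing and retention leaned to higher values in Atg5 LEC-KO, with 12 of 18 measured genes higher and a median log2 ratio of 0.20. Itga4, the alpha 4 chain of the integrins that bind VCAM-1 and MAdCAM-1, was the gene of this list past 2-fold. It had 178 UMIs in 62 Atg5 LEC-KO cells (233 CPM) and 63 UMIs in 25 WT cells (111 CPM), a ratio of 2.09 (1.56 to 2.83). Cxcr4, the receptor for the stromal chemokine CXCL12, was at 546 CPM in Atg5 LEC-KO cells and 403 CPM in WT cells, a ratio of 1.35 (1.15 to 1.6). S1pr1, the receptor that lets T cells leave the node along a sphingosine-1-phosphate gradient, was at 552 CPM in Atg5 LEC-KO cells and 469 CPM in WT cells, a ratio of 1.18 (1.01 to 1.38). Cd69, which opposes S1pr1 at the surface, was at 524 CPM in Atg5 LEC-KO cells and 469 CPM in WT cells, a ratio of 1.12 (0.955 to 1.31). Receptors of tissue and follicle entry were on the other side with wide intervals: Cxcr3 had a ratio of 0.739 (0.417 to 1.31), Cxcr5 of 0.793 (0.453 to 1.39) and Ccr8 of 0.646 (0.292 to 1.41). Ccr7 and Itgb1 of this list belong to the score above. Of the list, 5 genes, Itga4 and S1pr1 among them, were at least 2-fold lower in the effector than in the resting range of both libraries. Another 4 were at least 2-fold higher. The part of the shift between ranges in the ratios of this list was not tested.

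**Figure D4:**
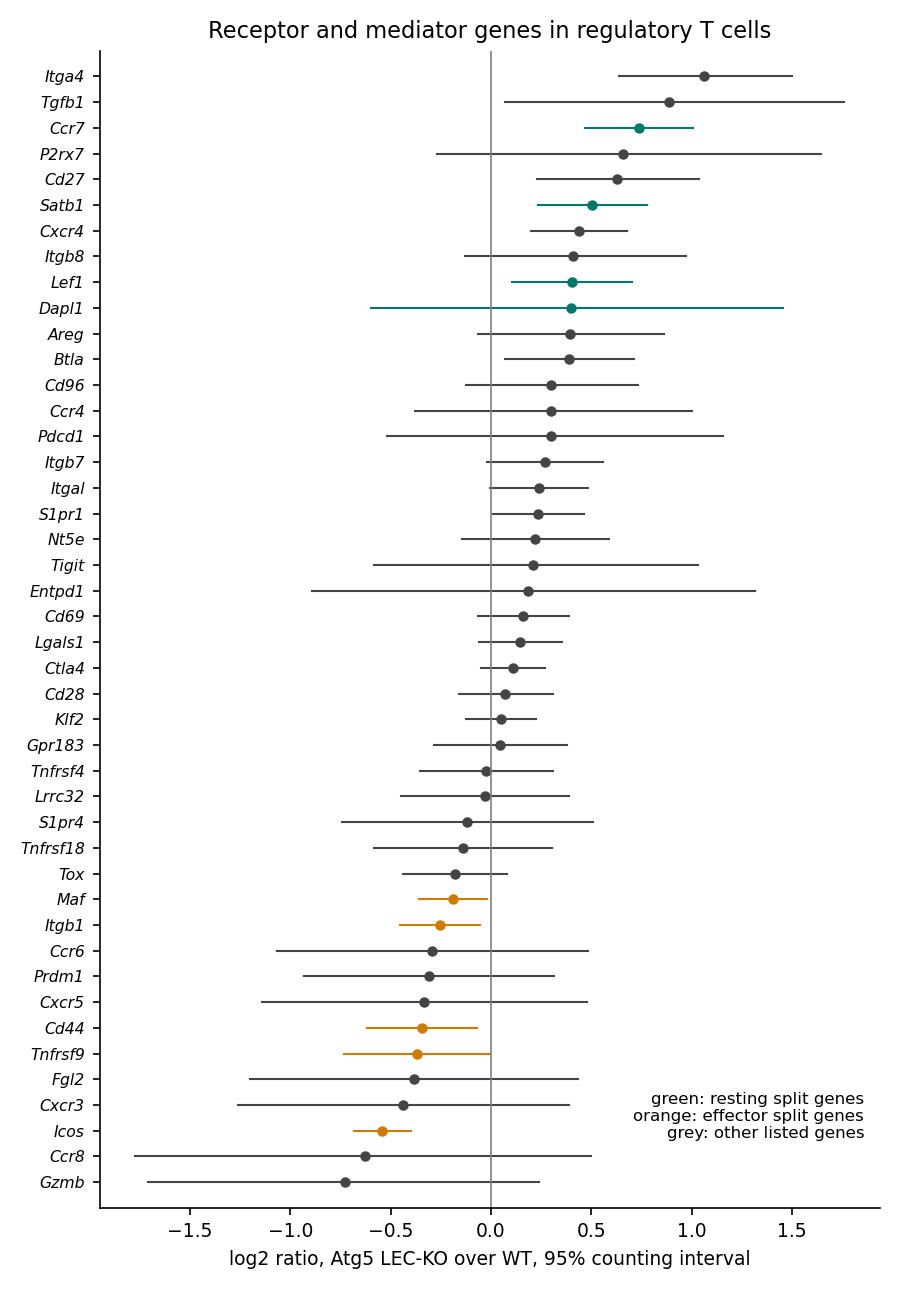
Log2 ratio of Atg5 LEC-KO over WT in regulatory T cells with its 95% counting interval for receptor and mediator genes with at least 30 UMIs, ordered by ratio. Green marks resting genes and orange the effector genes that define the score; Itga4 is highest at a ratio of 2.09 and Gzmb lowest at 0.604.

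Effector and tissue genes outside the score leaned to lower values in Atg5 LEC-KO. Of 38 held-out effector genes measured, 13 were higher and 25 lower, and the median log2 ratio over the list was -0.14, and of 9 tissue regulatory T cell genes 2 were higher and 7 lower, and the median log2 ratio over the list was -0.56. Rora had 201 UMIs in 67 Atg5 LEC-KO cells (263 CPM) and 297 UMIs in 52 WT cells (525 CPM), a ratio of 0.50 (0.416 to 0.60). Klrg1 had 15 UMIs in 6 Atg5 LEC-KO cells (19.6 CPM) and 29 UMIs in 6 WT cells (51.3 CPM), a ratio of 0.382 (0.19 to 0.736). Both were past 2-fold. Crip1, a zinc-binding protein of activated T cells, had a ratio of 0.566 (0.452 to 0.707), and Batf, a transcription factor that effector regulatory T cells need, of 0.613 (0.377 to 0.989). Areg went the other way, at 146 CPM in Atg5 LEC-KO cells and 111 CPM in WT cells, with a ratio of 1.31 (0.956 to 1.82). In female cells the median of the held-out effector genes was 0.28, against -0.14 over all cells, and with the 3 ranges weighted equally in both libraries it was 0.11.

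Of 15 held-out resting genes, 10 were higher and 5 lower in Atg5 LEC-KO, and the median log2 ratio over the list was 0.13. Bach2 had 190 UMIs in 61 Atg5 LEC-KO cells (248 CPM) and 74 UMIs in 31 WT cells (131 CPM), a ratio of 1.9 (1.44 to 2.52). Ly6c1, a surface protein of resting T cells, was past 2-fold, with 64 UMIs in 26 Atg5 LEC-KO cells (83.6 CPM) and 19 UMIs in 8 WT cells (33.6 CPM) and a ratio of 2.49 (1.47 to 4.4). Il7r was at 1109.6 CPM in Atg5 LEC-KO cells and 870.4 CPM in WT cells, a ratio of 1.27 (1.14 to 1.43). As given above, Il7r was higher in the effector than in the resting range of both libraries, unlike most of this list. Tcf7 was level, at 717 CPM in Atg5 LEC-KO cells and 724 CPM in WT cells, and Igfbp4 was lower, with a ratio of 0.657 (0.45 to 0.956). Of 9 follicular regulatory genes, 2 were higher and 7 lower, and the median log2 ratio over the list was -0.19. Il1r2, the decoy receptor for IL-1, had 26 UMIs in 11 Atg5 LEC-KO cells (34 CPM) and 41 UMIs in 10 WT cells (72.5 CPM), a ratio of 0.468 (0.275 to 0.784).

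Signalling genes differed gene by gene. Of 14 IL-2 and STAT5 response genes, 10 were higher and 4 lower, and the median log2 ratio over the list was 0.14. Stat5b, which carries the IL-2 signal to the nucleus, was at 318 CPM in Atg5 LEC-KO cells and 173 CPM in WT cells, a ratio of 1.83 (1.44 to 2.34), and Stat5a at 111 CPM in Atg5 LEC-KO cells and 69 CPM in WT cells, a ratio of 1.61 (1.09 to 2.42). The STAT5 target Pim1 was at 1157 CPM in Atg5 LEC-KO cells and 1385 CPM in WT cells, a ratio of 0.835 (0.758 to 0.92), and Cish, another target, had a ratio of 0.955 (0.623 to 1.47). Of 18 T cell receptor activation genes, 9 were higher and 9 lower, and the median log2 ratio over the list was 0.02. Nr4a3, an orphan nuclear receptor induced by antigen, was at 552 CPM in Atg5 LEC-KO cells and 318 CPM in WT cells, a ratio of 1.73 (1.45 to 2.07), whereas Egr1, an early growth response factor, was at 132 CPM in Atg5 LEC-KO cells and 239 CPM in WT cells, a ratio of 0.553 (0.423 to 0.721). Of 26 NF-kappaB and inflammatory genes, 17 were higher and 9 lower, and the median log2 ratio over the list was 0.11. Rel, the c-Rel subunit on which regulatory T cell development depends, was at 605 CPM in Atg5 LEC-KO cells and 356 CPM in WT cells, a ratio of 1.7 (1.44 to 2.02). Traf2, an adaptor of TNF receptors, was past 2-fold with 29 UMIs in 24 Atg5 LEC-KO cells (37.9 CPM) and 5 UMIs in 5 WT cells (8.85 CPM). Of 32 immediate early and dissociation genes, 14 were higher and 18 lower, and the median log2 ratio over the list was -0.10.

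Interferon-stimulated genes leaned to higher values in Atg5 LEC-KO. These genes answer interferons, and many encode antiviral effectors. Of 61 measured in regulatory T cells, 54 were higher and 7 lower in Atg5 LEC-KO, and 10 were at least 2-fold higher, where 2.26% of all genes were. The median log2 ratio was 0.58, beside -0.004 over all genes. Isg15, a ubiquitin-like modifier, had 34 UMIs in 25 Atg5 LEC-KO cells (44.4 CPM) and 8 UMIs in 5 WT cells (14.2 CPM), a ratio of 3.14 (1.43 to 7.85). Isg20, an RNA exonuclease, had 61 UMIs in 29 Atg5 LEC-KO cells (79.7 CPM) and 15 UMIs in 14 WT cells (26.5 CPM), a ratio of 3.0 (1.69 to 5.69). Stat2, the interferon signal transducer itself, had 84 UMIs in 45 Atg5 LEC-KO cells (109.8 CPM) and 30 UMIs in 22 WT cells (53.1 CPM), a ratio of 2.07 (1.35 to 3.25). Slfn5, a Schlafen protein, had 183 UMIs in 71 Atg5 LEC-KO cells (239 CPM) and 60 UMIs in 33 WT cells (106 CPM), a ratio of 2.25 (1.67 to 3.07). These 4 had intervals that leave out 1.

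Like Isg15, Ifit1 and Oasl2 rested on few WT cells. Ifit1, which binds viral RNA caps, had 51 UMIs in 22 Atg5 LEC-KO cells (66.7 CPM) and 9 UMIs in 8 WT cells (15.9 CPM), a ratio of 4.19 (2.04 to 9.67), and Oasl2, an oligoadenylate synthetase-like protein, had 36 UMIs in 14 Atg5 LEC-KO cells (47 CPM) and 4 UMIs in 2 WT cells (7.08 CPM), a ratio of 6.65 (2.38 to 25.7). In cells with a Foxp3 UMI their ratios were 1.33 and 0.887, below those over all cells. Rtp4 had a ratio of 2.44 (1.46 to 4.25), Xaf1 of 2.19 (1.39 to 3.56), Ifit3 of 2.51 (1.21 to 5.7) and Ifi214 of 2.32 (1.25 to 4.59). The more abundant Ifi203 (p200 family of nucleic acid sensors) was at 784 CPM in Atg5 LEC-KO cells and 511 CPM in WT cells, a ratio of 1.53 (1.33 to 1.77), and Ifi209 at 361 CPM in Atg5 LEC-KO cells and 196 CPM in WT cells, a ratio of 1.84 (1.47 to 2.31). Shisa5 was at 1191 CPM in Atg5 LEC-KO cells and 881 CPM in WT cells, a ratio of 1.35 (1.21 to 1.51). Ly6a was lower, with a ratio of 0.734 (0.581 to 0.927). MHC class I and immunoproteasome genes, which interferon also raises, had 6 of 18 higher and a median of -0.038.

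Counted by cell, each of 10 genes of the list was found in a larger share of Atg5 LEC-KO than of WT regulatory T cells, with 95% intervals that overlapped for all 10. These 10 were picked after the list's values had been seen, so their shared direction is a description. An Isg15 UMI was found in 25 of 181 Atg5 LEC-KO cells (13.8%, 9.14 to 19.7%) and 5 of 118 WT cells (4.24%, 1.39 to 9.61%). An Xaf1 UMI was found in 42 of 181 Atg5 LEC-KO cells (23.2%, 17.3 to 30.04%) and 14 of 118 WT cells (11.9%, 6.64 to 19.1%). A Stat2 UMI was present in 45 of 181 Atg5 LEC-KO cells (24.9%, 18.7 to 31.8%) and 22 of 118 WT cells (18.6%, 12.1 to 26.9%). Isg20 was detected in 29 of 181 Atg5 LEC-KO cells (16%) and 14 of 118 WT cells (11.9%). Ifi214 was detected in 24 of 181 Atg5 LEC-KO cells (13.3%) and 13 of 118 WT cells (11%). In conventional CD4 T cells an Isg15 UMI was found in 11 of 430 Atg5 LEC-KO cells (2.56%) and 11 of 229 WT cells (4.8%). Summed over the list per cell, the median was 88.4 UMIs per 10000 (quartiles 59.5 and 122) in Atg5 LEC-KO and 72.9 (quartiles 49.1 and 117) in WT regulatory T cells, so the sets of cells overlapped widely. The medians were 100 and 92.9 in cells with a Foxp3 UMI, and 78.8 and 60.8 in cells without. By range the medians were 92.7 in Atg5 LEC-KO and 79.0 in WT between the ranges, and 74.5 and 60.5 in the effector range. In the resting range they went the other way, at 91.1 in Atg5 LEC-KO and 106.1 in WT. In conventional CD4 T cells they were 82.5 in Atg5 LEC-KO and 80.8 in WT, and in CD8 T cells 85.7 and 88.7.

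The same list was counted gene by gene in the other cells of these libraries. In conventional CD4 T cells 27 of 61 genes were higher in Atg5 LEC-KO, with a median log2 ratio of -0.05, in CD8 T cells 29 of 70, with -0.064, and in B cells 19 of 70, with -0.19. In barcodes of at most 100 UMIs, which hold free RNA, 45 of 72 were higher, with a median of 0.10. Among regulatory T cells with a Foxp3 UMI 39 of 47 were higher, with a median of 0.39, and among those without 41 of 46, with 0.49. By range, the median was 0.10 over 31 genes in resting range cells, 0.67 over 43 genes between the ranges and 0.39 over 42 genes in effector range cells. Within male cells the median was 0.52 and within female cells 0.37. When every cell was thinned to 1200 UMIs it was 0.29. The difference between regulatory and conventional T cells was not tested, as each genotype is 1 library.

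**Figure D5:**
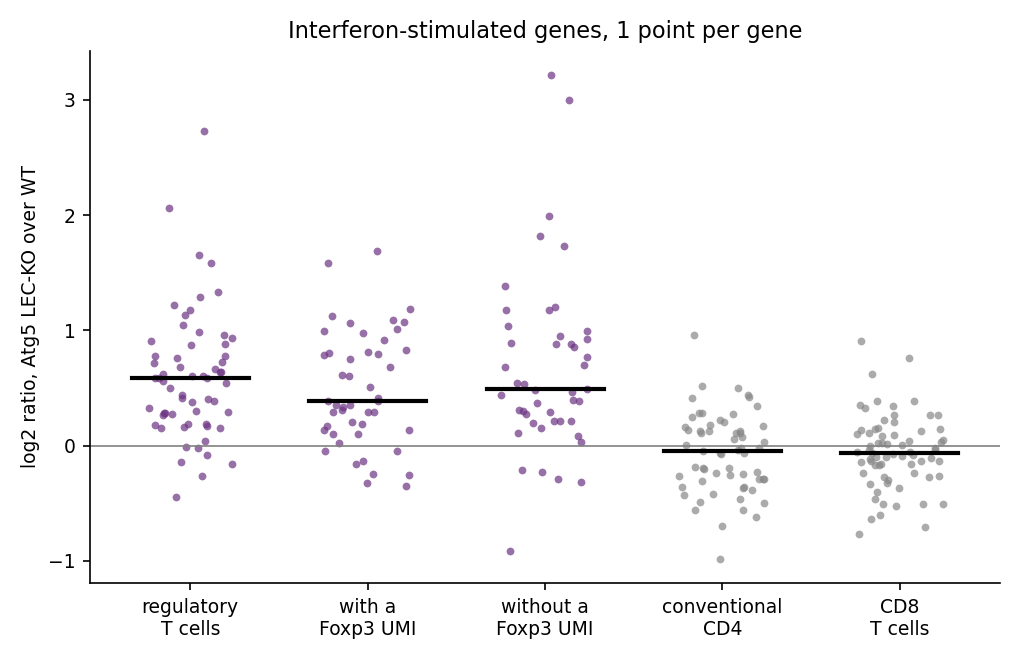
Log2 ratio of Atg5 LEC-KO over WT for each interferon-stimulated gene with at least 30 UMIs, in all regulatory T cells, in those with and without a Foxp3 UMI, in conventional CD4 T cells and in CD8 T cells; bars are medians. In regulatory T cells 54 of 61 genes lie above 0, and in conventional CD4 T cells 27 of 61.

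Promoters of these genes often hold the interferon-stimulated response element, whose core is searched here on either strand as GAAA, any 2 bases and GAAA (on the other strand TTTC, any 2 bases and TTTC). It was found in the 250 bases upstream of the start in 25 of 49 interferon-stimulated genes with a RefSeq promoter (51.0%), in 184 of 5210 genes measured in regulatory T cells (3.53%) and in 936 of all 27025 genes (3.46%). Among the 9 genes at least 2-fold higher that had a promoter, 6 held it, and among the 40 under 2-fold, 19 (47.5%). None of the 15 core genes with a promoter held it. A match is a run of letters and not a measured binding site. The 180 bases before the start of 4 of the genes at least 2-fold higher are printed because they carry the match that 25 of the 49 genes share, with each match in capitals (RefSeq, GRCm38.p6, 5' to 3' on the gene's strand).
Ifit1, chr19:34640709-34640888, + strand: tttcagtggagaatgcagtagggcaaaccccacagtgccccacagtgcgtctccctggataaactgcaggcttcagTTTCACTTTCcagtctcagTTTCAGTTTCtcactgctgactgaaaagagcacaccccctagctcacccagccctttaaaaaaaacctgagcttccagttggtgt
Isg15, chr4:156200819-156200998, - strand: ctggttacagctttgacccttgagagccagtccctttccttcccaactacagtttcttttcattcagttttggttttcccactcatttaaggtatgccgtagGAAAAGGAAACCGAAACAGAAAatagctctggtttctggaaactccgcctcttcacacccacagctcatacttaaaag
Ifit3, chr19:34583349-34583528, + strand: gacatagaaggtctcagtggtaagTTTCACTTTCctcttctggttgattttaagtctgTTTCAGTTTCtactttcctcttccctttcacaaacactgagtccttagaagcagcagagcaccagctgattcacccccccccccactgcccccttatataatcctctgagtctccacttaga
Slfn5, chr11:82951922-82952101, + strand: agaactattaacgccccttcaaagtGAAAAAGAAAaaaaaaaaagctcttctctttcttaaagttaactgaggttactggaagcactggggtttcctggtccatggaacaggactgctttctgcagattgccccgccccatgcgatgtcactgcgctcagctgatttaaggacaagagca
In Isg15 the 3 matches overlap and the first begins 78 bases before the start; in Ifit1 and Ifit3, 2 separate matches begin with the first at 104 and 156 bases, and Slfn5 holds 1 at 155 bases.

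Proliferation and metabolism genes leaned lower in Atg5 LEC-KO, but on few cells. Of 29 cell cycle genes measured, 4 were higher and 25 lower, and the median log2 ratio over the list was -0.36. Cenpf, a kinetochore protein of late division, had 34 UMIs in 6 Atg5 LEC-KO cells, 10 of them in the highest cell, and 114 UMIs in 7 WT cells, 41 of them in the highest cell, a ratio of 0.22 (0.146 to 0.326). Mki67 had 275 UMIs in 24 Atg5 LEC-KO cells (359 CPM) and 316 UMIs in 19 WT cells (559 CPM), a ratio of 0.643 (0.545 to 0.758). The share of cells with at least 2 UMIs over Mki67, Top2a, Cenpf and Cdk1 was 14.4% (26 of 181, 9.6 to 20.3%) in Atg5 LEC-KO and 15.3% (18 of 118, 9.3 to 23%) in WT, which overlapped. The list's median was -1.03 in male and 1.32 in female cells, and 0.064 without the cells above 3 times the median UMIs. Of 14 glycolysis genes 3 were higher and 11 lower, and the median log2 ratio over the list was -0.28, for example Pgk1 at 191 CPM in Atg5 LEC-KO cells and 299 CPM in WT cells, a ratio of 0.638 (0.508 to 0.801).

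Of 16 inducible heat shock genes 3 were higher and 13 lower, and the median log2 ratio over the list was -0.18. Hspa1b, an inducible HSP70, was at 1221 CPM in Atg5 LEC-KO cells and 1790.4 CPM in WT cells, a ratio of 0.682 (0.623 to 0.746). In male cells alone the heat shock median was 0.055. Autophagy genes, the pathway of the deleted gene, were mostly higher in Atg5 LEC-KO, 15 of 21 measured, with a median of 0.26. Atg4b, the protease that trims LC3, had 30 UMIs in 20 Atg5 LEC-KO cells (39.2 CPM) and 6 UMIs in 5 WT cells (10.6 CPM), a ratio of 3.69 (1.51 to 10.9), and Atg7, the E1-like enzyme, had 24 UMIs in 17 Atg5 LEC-KO cells (31.4 CPM) and 7 UMIs in 7 WT cells (12.4 CPM), a ratio of 2.53 (1.06 to 6.96). Gabarap, an LC3 family member with more UMIs, was at 414 CPM in Atg5 LEC-KO cells and 333 CPM in WT cells, a ratio of 1.25 (1.04 to 1.5), and Sqstm1 (p62), an autophagy receptor, at 231 CPM in Atg5 LEC-KO cells and 193 CPM in WT cells, a ratio of 1.2 (0.94 to 1.54). Ribosomal protein genes had 7 of 18 higher and a median of -0.046.

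Genes were also named by the size of their ratio, where the direction, as far as it was measured, agreed between sexes and between cells with and without a Foxp3 UMI. Higher in Atg5 LEC-KO were Nck2, an adaptor between the T cell receptor and actin, with 56 UMIs in 37 Atg5 LEC-KO cells (73.2 CPM) and 9 UMIs in 8 WT cells (15.9 CPM) and a ratio of 4.6 (2.26 to 10.6), and Scml4, a polycomb-group gene of T cells, with 115 UMIs in 50 Atg5 LEC-KO cells (150.3 CPM) and 27 UMIs in 19 WT cells (47.8 CPM) and a ratio of 3.15 (2.05 to 4.98). Eif2ak3, the endoplasmic reticulum stress kinase PERK, had a ratio of 3.09 (1.58 to 6.61), the phosphatase gene Cdc14b of 3.32 (1.65 to 7.4), and Ndrg1, a differentiation gene tied to T cell anergy, of 3.09 (1.58 to 6.61). Abhd13 had a ratio of 5.66 (2.41 to 16.2), A330040F15Rik of 3.19 (1.83 to 5.88) and Phtf2 of 3.07 (1.65 to 6.13). In conventional CD4 T cells the log2 ratios of Nck2, Scml4 and Eif2ak3 were 0.073, 0.0048 and -0.33, and that of Ndrg1 was 1.83. Mef2c had 59 UMIs in 5 Atg5 LEC-KO cells, 30 of them in 1 cell, and 0 in WT. Its ratio was 14.5 with the WT count set to 3, and the lower limit of its interval was 11.4. Mef2c is a transcription factor of B cells, where it stood at 1254 CPM in Atg5 LEC-KO and 1299 CPM in WT, and it was at 1379 and 1176 CPM in barcodes of at most 100 UMIs. None of the 5 cells had a UMI of the B cell genes Cd79a, Cd79b or Ms4a1, and the part of free RNA in this value was not tested.

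Lower in Atg5 LEC-KO by the same rule was, besides Cenpf, Psmd3, a proteasome lid subunit, with 12 UMIs in 11 Atg5 LEC-KO cells (15.7 CPM) and 38 UMIs in 20 WT cells (67.2 CPM) and a ratio of 0.233 (0.111 to 0.456). Efhd2, a calcium-binding actin regulator, had a ratio of 0.344 (0.191 to 0.597), Fcho1, an initiator of clathrin-coated pits, of 0.338 (0.175 to 0.626), and Ube2m, the NEDD8-conjugating enzyme, of 0.36 (0.20 to 0.629). Pdik1l, Fam53c, Rnf34 and Med21 had ratios of 0.345, 0.355, 0.359 and 0.359. Ube2m was also lower in conventional CD4 T cells (log2 ratio -1.49), CD8 T cells (-1.09) and B cells (-1.36), whereas the log2 ratios of Efhd2 and Fam53c in conventional CD4 T cells were 0.069 and 0.035. Cxcl10, a chemokine that draws CXCR3-bearing cells, stood at 126 CPM in the effector range against 4.67 CPM in the resting range of the Atg5 LEC-KO library, and 653 against 0 CPM in WT. Over all regulatory T cells it had 75 UMIs in 19 Atg5 LEC-KO cells and 201 UMIs in 16 WT cells, 64 of them in 1 WT cell.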

How the data were processed

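The counts are the deposited UMI counts per gene and barcode, error-corrected as the file headers state; the authors used the BD Rhapsody WTA Analysis Pipeline 1.11 with mm10 and kept intronic reads, per the file headers. No read was processed here. Cells were kept at 1200 UMIs, 200 genes and 25% mitochondrial UMIs. The members and the gene lists were chosen with earlier results of these data known. UMIs were summed per set of cells and divided by the set's total without mitochondrial genes (CPM). With 1 library per genotype no test was run: levels carry exact Poisson, ratios exact conditional binomial and shares exact Clopper-Pearson 95% intervals, with 3 counts of the total as the limit for a share of 0 (below the Clopper-Pearson bound), all for counting error alone, since neither cells of a library nor UMIs of a cell are independent samples. A gene was measured from 30 UMIs on and called from 2-fold on, and a count of 0 was set to 3 per library in a ratio. Lists are described by counts and medians beside all genes. A difference between shares carries an interval combined from the Wilson 95% intervals of both shares. For alternative values, the spread used was the ratio interval for a gene. For a list median it was a 95% interval taken from the ranked ratios of the list's genes.

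Genes named by genotype are the 10 highest and 10 lowest ratios among genes with at least 50 UMIs whose direction agreed in both sexes and with and without Foxp3, where measured. Between ranges and against conventional cells, genes were taken by the ratio nearer 1 over both libraries. The division by gamma-delta and killer lectin UMIs, and genes named for it, were chosen after values had been seen. No doublet caller was run; cells with a B cell UMI or above 3 times the median UMIs were left out as alternatives. Computation used Python 3.11.15, numpy 2.4.6, pandas 2.3.3, scipy 1.17.1 and matplotlib 3.10.9, and the counting was tested on simulated data. Some genes that enter the score, lists and marker sums are not reported here by name.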

Additional observations from a re-analysis of the deposited data

Results flagged for a closer look

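Male and female cells had opposite signs in 4 results, and the difference between the sexes was not tested. The share of regulatory T cells was 0.37 percentage points higher in Atg5 LEC-KO than in WT among male cells and 1.13 points lower among female cells (-1.13). The median log2 ratio of the held-out resting genes was -0.079 in female cells, that of the held-out effector genes was 0.28 in female cells, and that of the cell cycle genes was 1.32 in female cells, each against the opposite sign in male cells. The WT library held 17 female regulatory T cells.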

How the results depend on the processing

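No paired analysis was possible because each genotype is 1 pooled library. The 30 alternative values of the 3 share differences stayed within the counting interval over all cells: the difference in the share of regulatory T cells ran from -3.14 to 0.37 percentage points, that of the resting range from 6.35 to 16.8 points and that of the effector range from -24.7 to -12.1 points. Without gamma-delta or killer lectin cells, an alternative added after the data had been seen, they were -1.63, 14.95 and -16.6 points. The number of genes at least 2-fold higher, 146, was 250 in female cells, 92 when cells were thinned to 1200 UMIs, 13 at 100 UMIs a gene, 460 at 10 UMIs, 585 at 1.5-fold, and 236 without the cell with the most UMIs of the gene in each library, also added after the data had been seen. The number lower, 166, was 45 when thinned, 15 at 100 UMIs, 614 at 10 UMIs and 626 at 1.5-fold. Other cells, thinning or another UMI limit also change how many genes are measured. Those counts are therefore not shares of the same 6471 genes. The core gene median of 0.048 was 0.28 in male and 0.33 in female cells. The held-out effector median of -0.14 was 0.28 in female cells and 0.11 with the ranges weighted equally. The interferon median of 0.58 was 0.71 at 10% mitochondrial UMIs, 0.37 in female cells and 0.29 when thinned. The cell cycle median of -0.36 was -0.14 with Foxp3 required, -0.82 without cells holding a B cell UMI, -1.03 in male cells, -0.10 when thinned, and reversed to 1.32 in female cells and 0.064 without cells above 3 times the median UMIs. The heat shock median of -0.18 reversed to 0.055 in male cells. The cause was not tested. Among the other lists 247 alternative values moved by less than the spread used, 24 by more, and 1 reversed, the heat shock value above; among genes named by genotype these numbers were 244, 25 and 0. Depth limits genes under 30 UMIs, for which no ratio is counted.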
